A study of Mus musculus with 73 samples.

Results

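The clustered protocadherins are cell adhesion proteins of the cadherin superfamily encoded in 3 gene arrays next to each other on mouse chromosome 18. Members were taken as all rows of the deposited table on chromosome 18 whose name begins with Pcdha, Pcdhb or Pcdhg. This gave 58 of the 30546 rows, with 14 in the alpha, 22 in the beta and 22 in the gamma cluster. Each alpha and gamma variable exon has a promoter of its own and is spliced to constant exons shared by its cluster, whereas each beta gene is complete in a single exon. In neurons, most but not all variable promoters are chosen singly, at random and independently on each allele. The resulting surface label lets a neuron tell its own branches from those of others. DNA methylation, CTCF with cohesin, SMCHD1 and H3K9 methylation are known to act on these promoters, and the early embryo is a tissue in which the clusters are mostly silent.

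The study collected epiblast, which forms the embryo proper, and extraembryonic ectoderm (ExE), which forms part of the placenta, from single mouse embryos at E6.5. BDF1 denotes a hybrid laboratory background and CAST a wild-derived strain, so reads over their polymorphisms report the allele of origin. Knockouts were made by injecting BDF1 x CAST zygotes with Cas9 mRNA and several guides against exons of Dnmt1 (maintenance DNA methyltransferase), Ehmt1 and Ehmt2 together (G9a-Glp, H3K9 methyltransferases), Rnf2 (PRC1) or Eed (PRC2). The question of the series is which of these regulators maintain parental imprints in each lineage. The wild type of the same direction, labelled Bdf1xCast, was the control for every knockout. In both, BDF1 oocytes received CAST sperm by intracytoplasmic injection and CD-1 females carried the embryos. The reciprocal wild type, labelled CastxBdf1, came from natural mating of CAST females with BDF1 males, so cross and mode of fertilisation cannot be told apart. Each knockout embryo is an edited zygote and may carry several edited alleles, which were not analysed here.

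The 12 groups held 4 epiblast and 4 ExE libraries of CastxBdf1 wild type, 7 and 7 of Bdf1xCast wild type, 3 and 3 of Dnmt1, 6 and 8 of G9a-Glp, 6 and 5 of Rnf2, and 9 and 10 of Eed. Library totals ran from 1141414 to 17653087 reads, and the deepest were those labelled Rnf2. A total is the sum over all rows, so a read in overlapping rows counts in it more than once. Eed CPM (counts per 1e+06 reads of the library total) lay below every wild-type library in 9 of 9 Eed epiblasts and 10 of 10 Eed ExE. The other targeted genes were less clear: Rnf2 lay below the wild-type range in 4 of 6 epiblast and 0 of 5 ExE libraries labelled Rnf2, Dnmt1 in 3 of 3 and 2 of 3, and in G9a-Glp Ehmt1 in 2 of 6 and 5 of 8 and Ehmt2 in 0 of 6 and 6 of 8. Edits need not lower the RNA, so a direction drawn from these groups rests on the label. ExE markers (Elf5, Cdx2, Eomes and others, 7 in the table) summed to 307 to 1303 CPM in ExE and 25.2 to 245 CPM in epiblast over all groups. Epiblast markers (8 genes) did not separate the wild-type tissues as a sum. They ran from 504 to 977 CPM (mean 635) in epiblast and 509 to 898 CPM (mean 714) in ExE of Bdf1xCast. Pou5f1 was at 0 in that ExE and Cdx2 at 0 in that epiblast. This did not hold in most other groups. All 8 epiblast markers had reads in ExE of every knockout, and Cdx2 had reads in CastxBdf1, G9a-Glp, Rnf2 and Eed epiblast. Libraries of 1 group came from separate embryos, and no pair of libraries held identical counts.

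The rows do not count separate transcripts. All 14 alpha rows end at the 3′ end of the alpha cluster and all 22 gamma rows at that of the gamma cluster, so a read in the shared 3′ part is counted in every row. From a longer row to the next shorter one the count rose in 0 of 2448 steps over the 72 libraries. The Pcdha1 row (mm10, chromosome 18, 36930285 to 37187657) therefore held every read of the alpha cluster, and the Pcdhga1 row (37661945 to 37841870) every read of the gamma cluster. The 22 beta rows, from Pcdhb1 (start 37264998) to Pcdhb22 (end 37521419), overlapped no other member. The predicted loci Gm37013, Gm38666 and Gm38667 span these clusters and Taf7, a housekeeping gene of the basal transcription machinery that lies between the beta and gamma clusters. In 72 of 72 libraries the Gm38667 count was exactly the sum of Pcdha7, Pcdhga1, the beta rows, Taf7, Slc25a2 and LOC105246409, and Taf7 held 98.1% of it. The counts thus cover whole loci, introns included. Below, a distinct cluster level means the Pcdha1 row for alpha, the sum of the beta rows, and the Pcdhga1 row for gamma, and a segment means the reads between the start of a row and that of the next shorter row.

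Few of the counted reads, which are those over BDF1 and CAST polymorphisms, came from the clusters. Over all libraries there were 176 distinct alpha, 506 distinct beta and 1041 distinct gamma reads, 1723 in all, or 6.80 CPM. Adding up the overlapping rows would have counted 1538 alpha and 15976 gamma reads, which is 8.74 and 15.3 times the distinct number. All 58 rows had at least 1 read somewhere, but the largest count of a row in 1 library was 131. The highest mean CPM over the 72 libraries belonged, in each nested cluster, to the longest rows: 3.85 for Pcdhga1, 3.34 for Pcdhga2, 3.19 for Pcdhga3 and 3.15 for Pcdhgb1, and 0.597 for Pcdha1, 0.562 for Pcdha2, 0.555 for Pcdha3 and 0.497 for Pcdha4. Among beta rows it was 0.204 for Pcdhb19, 0.167 for Pcdhb9, 0.164 for Pcdhb20 and 0.163 for Pcdhb2. In bulk tissue, fewer cells with a transcript and less of it per cell cannot be told apart, and counting intervals below cover counting error only, since the PCR reads carry no molecular identifiers.

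One control library stood apart. Epiblast of Bdf1xCast wild-type embryo 8 had the smallest total of its group, 1311863 reads, and reads in 20567 rows against 14235 to 15118 in the other 6 wild-type epiblasts. It held 79 beta reads (60.2 CPM), 36 gamma reads (27.4 CPM) and 6 alpha reads (4.57 CPM). The other 6 held 0 to 1.19 CPM of beta, 0.419 to 3.63 CPM of gamma and 0 to 1.58 CPM of alpha. The same library held 399 CPM in 926 olfactory, vomeronasal and bitter taste receptor genes, families not known for a role in this tissue, against 5.44 to 30.5 CPM in the others. Over 80 CPM of such reads were also found in Rnf2 epiblast embryo 5 (103 CPM), G9a-Glp ExE embryo 7 (90.2 CPM) and Eed epiblast embryo 3 (83.9 CPM). Embryo 8 was also the highest of its group in markers of visceral endoderm, at 476 CPM against 5.03 to 75.9 CPM, of primitive streak and mesoderm, at 1269 against 44.2 to 857 CPM, and of epiblast, at 977 against 504 to 670 CPM. The same held for ExE markers, at 229 against 27.1 to 161 CPM. Markers of maternal decidua and blood stood at 14.5 against 2.77 to 12.6 CPM. Neural markers and giant cell and spongiotrophoblast markers were not highest in embryo 8. The part of these readings in the results was not tested beyond leaving out the libraries, and epiblast results are given with and without embryo 8.

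**Figure D1:**
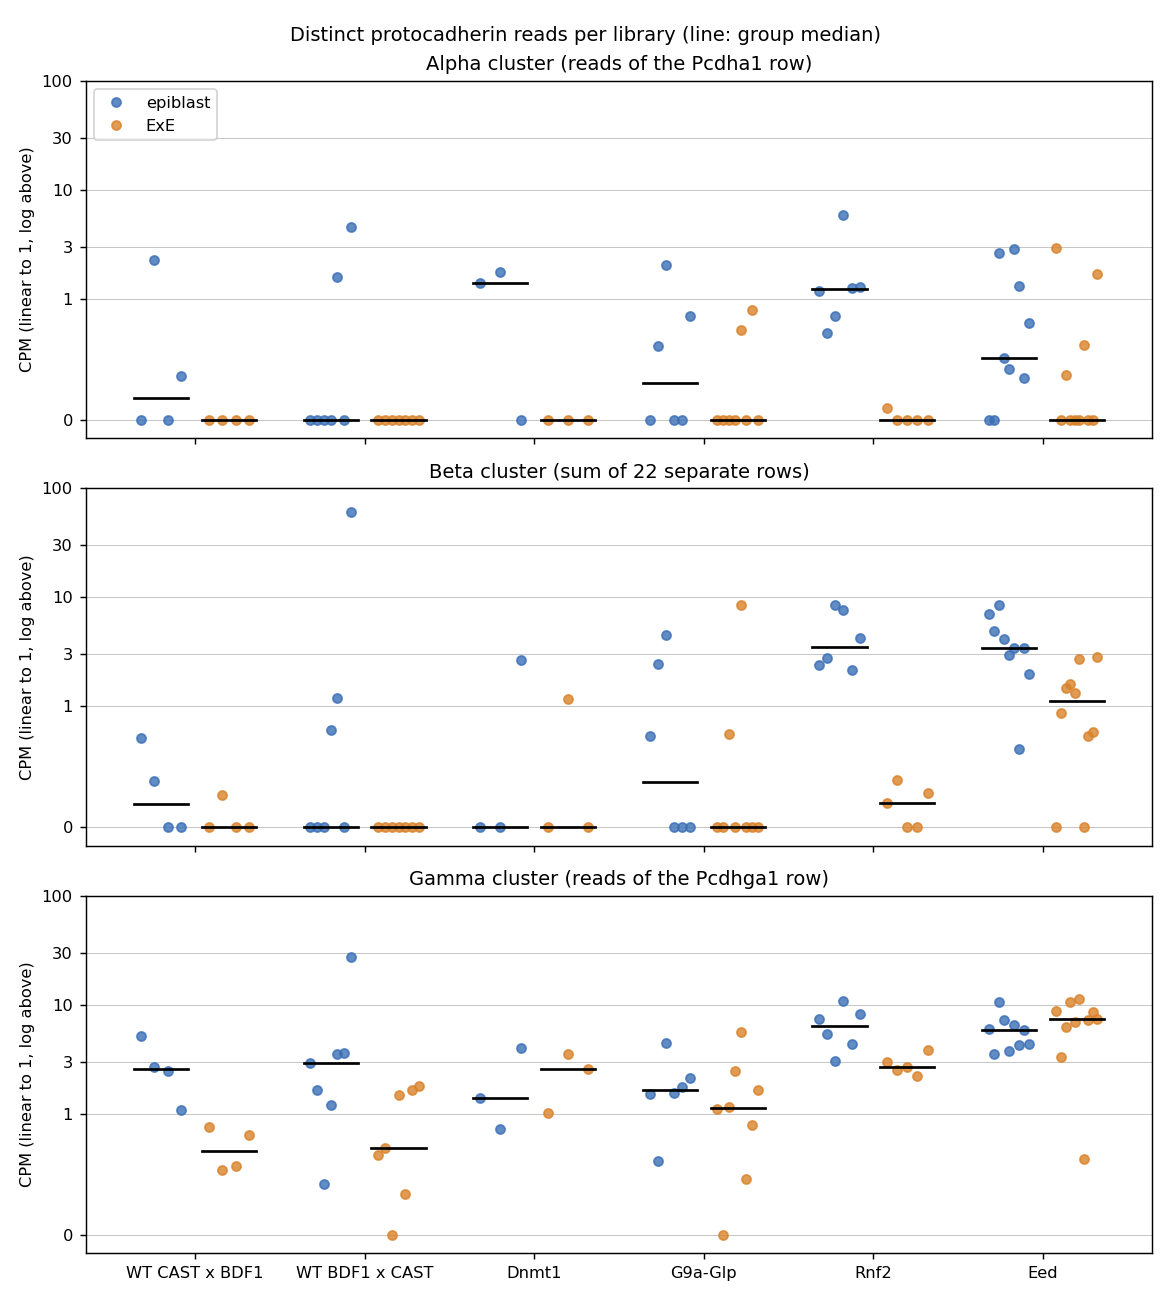
Distinct alpha, beta and gamma reads of each library in CPM (vertical axes, linear to 1 and logarithmic above) for the 6 genotype and cross groups, with epiblast in blue and ExE in orange and a line at each group median. Gamma in Eed ExE sits between 3.31 and 11.3 CPM in 9 of 10 embryos against 0 to 1.79 CPM in wild-type ExE of the same cross, and the single wild-type epiblast at 60.2 CPM of beta is embryo 8.

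The clearest difference was in ExE without Eed, where the gamma cluster rose. The distinct gamma level in Bdf1xCast wild-type ExE was 0.655, 0.717, 0, 1.49, 0.333, 1.65 and 1.79 CPM in embryos 1, 2, 3, 4, 6, 7 and 8. In Eed ExE the lowest, median and highest were 0.622, 7.34 and 11.3 CPM, and 9 of 10 embryos lay above every wild-type library. Embryo 7, with 2 gamma reads, was the exception and lay inside the wild-type range. The mean was 7.11 ± 3.21 CPM (SD, n = 10) against 0.947 ± 0.695 (SD, n = 7), and the pooled level was 7.59-fold higher. In the fit across all genes, Pcdhga1 had a log2 fold change of 2.68 ± 0.50 (SE), with an adjusted p of 0.000226 (edgeR quasi-likelihood test with Benjamini-Hochberg adjustment, two-sided, threshold 0.05). The row entered this fit through the Eed libraries, as 8 of 10 Eed and 0 of 7 wild-type libraries reached the level that edgeR's filter asks for. The fit without that filter is given below.

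Only 5 of the 58 rows passed edgeR's filter on low counts in this comparison, and they passed through the Eed libraries, so that they were called is no support. They were Pcdhga1, Pcdhga2, Pcdhga3, Pcdhgb1 and Pcdhga4, with log2 fold changes of 2.51 to 2.68, and they share reads. Of the rows after Pcdhga1, Pcdhga2 ran from 0 to 1.65 CPM (median 0.717) in wild-type ExE and from 0.622 to 9.99 CPM (median 5.46) in Eed ExE. Pcdhga3 and Pcdhgb1 had the wild-type values of Pcdhga2 and reached 9.34 CPM in Eed ExE, and embryo 7 was again inside the wild-type range. All 5 were called higher and 0 lower, where 22.7% of all 10058 genes tested were called higher and 18.1% lower. Without the filter 51 members could be fitted, and 25 were called higher against 16.5% of all genes: 20 gamma and 5 alpha rows, and 0 beta rows. The 5 alpha rows, Pcdha1 to Pcdha5, hold the reads of very few libraries. Pcdhga1 in the fit without the filter had a log2 fold change of 2.67 ± 0.50 (adjusted p = 0.000123, edgeR). Once the rows were split into segments, no member passed the filter, so these fits concern the gamma locus as a whole and no named variable exon. Scaled to library totals in place of TMM (edgeR's trimmed-mean scaling), the median of all genes in this comparison moved up by 0.17 on the log2 scale and the split of calls went from 2284 higher and 1822 lower to 2840 and 995, and Pcdhga1 stood at 2.87.

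Alpha and beta reads in Eed ExE were fewer. Counted beta reads were absent from all 7 wild-type ExE libraries, 0 reads against a summed library total of 20276105, which allows up to 0.148 CPM. Eed ExE held 37 beta reads in 8 of 10 embryos, from 0.755 to 2.84 CPM where present, and at a pooled 1.25 CPM this was at least 8.47-fold higher than the wild-type limit (3 reads over the group). Alpha reads were likewise 0 in the wild type, and 17 reads stood in 4 of 10 Eed ExE embryos, 8 of them in embryo 1 and 6 in embryo 10. The alpha level was therefore 0 in 6 Eed embryos and overlapped the wild type.

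Other readings moved in the same ExE libraries. Neural markers (7 in the table) summed to 8.03 to 58.5 CPM in Eed ExE and 0.658 to 5.67 CPM in wild-type ExE, without overlap. Of the 7, 6 had reads in Eed ExE and 5 in wild-type ExE. Dcx, a marker of young neurons, was at 0 in both, and Sox1 was at 0 in the wild type only. Rows with a read numbered 14760 to 16665 in Eed and 13500 to 13907 in wild type, and receptor genes held 7.47 to 38.1 and 3.35 to 16.8 CPM. Visceral endoderm markers (8 genes) also separated, at 38.0 to 77.5 CPM in Eed and 12.2 to 27.5 CPM in wild-type ExE, with Sox17 at 0 in the wild type. Lower sums were found for ExE markers, at 307 to 622 CPM against 567.9 to 1049 CPM, and for primitive streak and mesoderm markers, at 15.6 to 107 CPM against 103 to 198 CPM. In both of these lists 8 of 10 Eed libraries lay below every wild-type library. Epiblast markers did so in 5 of 10, at 405 to 830 CPM, and giant cell and spongiotrophoblast markers lay above every wild-type library in 7 of 10. Their part in the gamma result was not tested.

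Segment reads show where in the gamma locus the Eed ExE reads lay. Of 210 gamma reads, 145 (69.0%, Wilson 95% interval 62.5 to 74.9%) fell upstream in the A and B variable part, and 62 in the last segment, which starts at Pcdhgc5 and holds the constant exons. In Eed epiblast 49 of 128 reads were in the variable part (38.3%, 30.3 to 46.9%), in Rnf2 ExE 53 of 105 (50.5%, 41.1 to 59.9%), and in wild-type ExE 10 of 19 (52.6%, 31.7 to 72.7%). Reads of 1 library are not independent, so these intervals are narrower than the spread between embryos. The first segment, of Pcdhga1 itself, held 49 reads in 9 of 10 Eed ExE embryos and 4 reads in 2 of 7 wild-type ExE. It gave 17 reads in embryo 8, 7 in embryo 10, and 6 each in embryos 1, 5 and 6. Pcdhga10 followed with 18 reads in 5 embryos, Pcdhga2 with 14 in 6, Pcdhga11 with 13 in 4 and Pcdhga4 with 12 in 4. In Eed ExE 20 of the 22 gamma segments had a read and a median library had reads in 7, against 5 segments and a median of 1 in wild-type ExE.

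**Figure D2:**
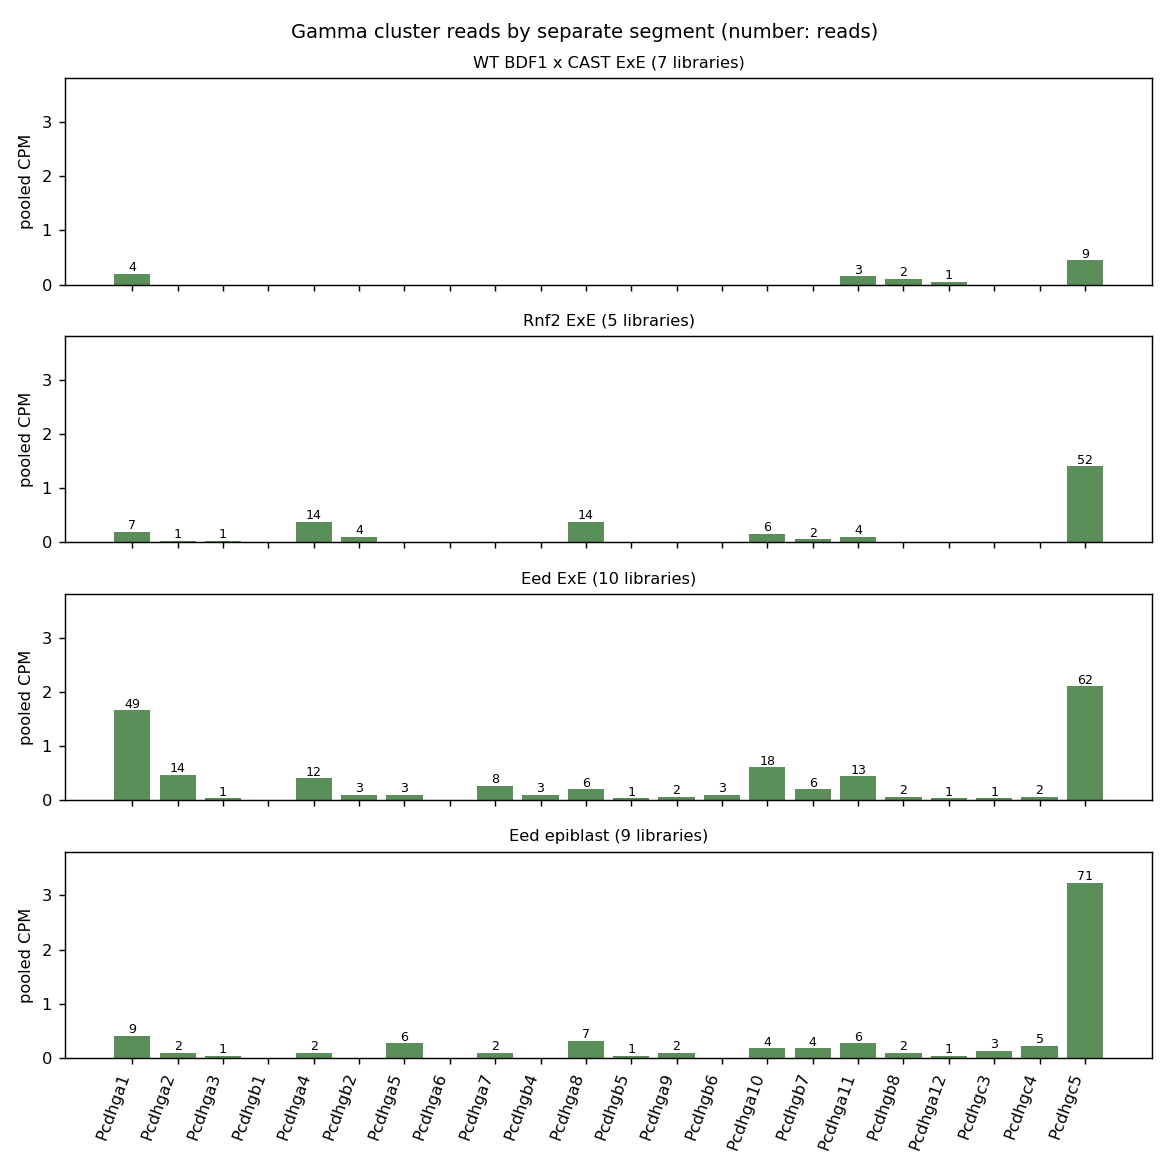
Pooled gamma reads by separate segment, in genome order, as CPM (bars) with the number of reads above each bar, for wild-type, Rnf2 and Eed ExE and Eed epiblast. Eed ExE shows a tall bar at the first segment, Pcdhga1 (49 reads), beside the last one, Pcdhgc5 (62 reads), while in Eed epiblast the last segment alone holds 71 of 128 reads.

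In ExE labelled Rnf2 the gamma cluster was also higher, by a smaller amount. The 5 libraries held 2.95, 2.53, 2.71, 2.20 and 3.86 CPM in embryos 2, 4, 5, 6 and 7, and all 5 lay above the highest wild-type ExE, at 1.79 CPM. The pooled level was 3.02-fold higher, with 105 reads against 19. No member passed the filter, so 0 were called by edgeR or DESeq2, where 12.2% of 9506 genes were called higher and 9.99% lower. With a filter on a mean of 1 CPM instead, 2 of 16 members were called higher, which is near the 11.8% of all genes. These were Pcdhga1 at a log2 fold change of 1.49 ± 0.52 (adjusted p = 0.0499, edgeR) and Pcdhga2 at 1.68. The rows passed this filter through the Rnf2 libraries, as Pcdhga1, the longest, had a mean of 2.85 CPM there and 0.947 CPM in wild-type ExE. That they were called is therefore no support. With no filter Pcdhga1 had an adjusted p of 0.0737 (edgeR). The receptor genes held 4.57 to 7.54 CPM here, inside the wild-type range, and neural markers 3.17 to 7.502 CPM, with 1 of 5 libraries above the wild-type maximum of 5.67 CPM. Visceral endoderm markers summed to 22.4 to 49.2 CPM and lay above every wild-type ExE in 4 of 5 libraries. Primitive streak and mesoderm markers, at 35.4 to 122.7 CPM, and ExE markers, at 501 to 1078 CPM, lay below every wild-type ExE in 3 of 5. Rows with a read numbered 13391 to 16174, above the wild-type maximum in 4 of 5. These 4 libraries were deeper, with totals of 6998279 to 10263280 against 2685835 to 3053690 in wild-type ExE. Embryo 5, with a total of 1847681, had the 13391 rows. The part of these readings in the gamma levels was not tested. Beta reads numbered 8 in 3 of 5 libraries and alpha reads 1. Whether Eed and Rnf2 differ in ExE was not tested.

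In Rnf2 ExE the last gamma segment held the most reads. Pcdhgc5 held 52 reads in 5 of 5 libraries, Pcdhga4 14 reads in 4, Pcdhga8 14 reads in 2 and Pcdhga1 7 reads in 2. The level of the last segment ran from 0.541 to 2.24 CPM, and overlapped the 0 to 1.49 CPM of wild-type ExE.

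In epiblast the gamma and beta comparisons of Eed and Rnf2 with the wild type turned on embryo 8. The distinct gamma level was 3.52, 5.88 and 10.7 CPM (lowest, median, highest of 9) in Eed epiblast and 3.07, 6.43 and 10.8 CPM (of 6) in Rnf2 epiblast. Against 0.419, 2.95 and 27.4 CPM over the 7 wild-type epiblasts, both overlapped. Without embryo 8 the wild-type maximum was 3.63 CPM, with 8 of 9 Eed and 5 of 6 Rnf2 libraries above it, and the pooled level was 2.59-fold higher in Eed and 2.99-fold higher in Rnf2. Beta was 0.651 to 8.43 CPM in Eed and 2.16 to 8.48 CPM in Rnf2 epiblast, 8 of 9 and 6 of 6 above the highest of the other 6 wild-type libraries, 1.19 CPM. Pooled beta levels were 11.9-fold and 13.4-fold higher on that base. With embryo 8 the pooled folds were 1.38 and 1.60 for gamma and 0.768 and 0.863 for beta. Alpha reached 2.86 CPM in Eed and 5.92 CPM in Rnf2, with only 2 of 9 and 1 of 6 libraries above the other wild-type libraries.

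The tests followed the same division. With all 7 controls, 11 members passed the filter for Eed and 0 were called by edgeR, 0 of them at an unadjusted p under 0.05, while DESeq2 called 8 higher against 20.6% of all genes. Of 9820 genes 19.2% were called higher and 16.5% lower. For Rnf2 16 members passed, and 0 were called by edgeR or DESeq2, 0 at an unadjusted p under 0.05, where 18% of 10134 genes were called higher and 13% lower. Pcdhga1 had log2 fold changes of 0.05 ± 0.54 in Eed and 0.37 ± 0.63 in Rnf2 by edgeR, and of 1.11 ± 0.39 and 0.28 ± 0.64 by DESeq2. For Eed the tools thus differed on the same libraries. The DESeq2 value lay near the edgeR value without embryo 8 given below, and the reason was not tested. Without embryo 8, an alternative chosen after seeing the data, edgeR called 15 of 15 members higher in Eed and 17 of 17 in Rnf2, all gamma rows that share reads, against 22.4% and 20.9% of all genes. The level the filter asks for was reached by Pcdhga1, the longest of these rows, in 7 of 9 Eed and 0 of 6 wild-type libraries, and in 6 of 6 Rnf2 and 3 of 6 wild-type libraries. The rows thus passed through the knockout libraries, and that all of them were called is no support. Pcdhga1 then had a log2 fold change of 1.18 ± 0.38 in Eed (adjusted p = 0.0185, edgeR) and 1.47 ± 0.44 in Rnf2 (adjusted p = 0.0155, edgeR). With no filter as well, 11 of 57 members were called higher in Eed against 11% of all genes, and 21 of 56 in Rnf2 against 10.8%. Pcdhga1, which holds all gamma reads, was not among those called in Eed (1.15 ± 0.45, adjusted p = 0.0638, edgeR). In Rnf2 it was called (1.49 ± 0.46, adjusted p = 0.0155, edgeR).

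Other readings moved with the epiblast levels once embryo 8 was set aside. Rnf2 epiblast libraries were deeper, 5549733 to 17653087 reads, than the wild-type ones, at most 3028267. Rows with a read numbered 17031 to 23582 in Rnf2 and 14442 to 17149 in Eed epiblast, against 14235 to 15118 in the other 6 wild types, above all of them in 6 of 6 and 8 of 9 libraries. Receptor genes held 23.7 to 103 CPM in Rnf2 and 11.96 to 83.9 CPM in Eed epiblast, and 3 of 6 and 3 of 9 libraries lay above the 30.5 CPM that was the highest of those 6. Epiblast markers summed to 1030 to 1486 CPM in Rnf2 and 1041 to 1721 CPM in Eed, against 504 to 670 CPM, without overlap. Neural markers exceeded the wild-type maximum of 25.6 CPM in 6 of 9 Eed and 2 of 6 Rnf2 libraries. Their part in the gamma and beta levels was not tested.

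Among beta rows, Pcdhb4 set Eed epiblast apart. It had 4, 5 and 5 reads in embryos 2, 5 and 6, 2 reads in embryo 4 and 1 read each in embryos 1, 3 and 10, so 19 reads in 7 of 9 libraries. No wild-type library of either tissue had a Pcdhb4 read, embryo 8 included, and Rnf2 epiblast held 3 reads in 2 of 6. It did not pass the filter. With no filter Pcdhb4 was the only member called in Eed epiblast, 1 of 57 against 8.22% of all genes, with an adjusted p of 0.0187 (edgeR). Its fitted log2 fold change of 4.21 depends on the prior count, since the wild type is at 0. Pcdhb4 was singled out after its values were seen.

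The beta rows with the most reads per library were spread over other members. In Rnf2 epiblast Pcdhb15 held 35 reads in 3 of 6 libraries, Pcdhb19 31 in 5, Pcdhb9 24 in 4 and Pcdhb20 23 in 5. In Eed epiblast the most reads after Pcdhb4 were in Pcdhb7, with 10 in 5 of 9 libraries, and Pcdhb14, with 7 in 3. Pcdhb19 held 3 reads there, Pcdhb9 6, Pcdhb20 1 and Pcdhb2 6. Wild-type embryo 8 alone held 12 reads of Pcdhb19, 8 of Pcdhb20, 6 of Pcdhb2 and 5 of Pcdhb9. A median Rnf2 epiblast had reads in 8.5 of the 22 beta rows and a median Eed epiblast in 4. The deeper Rnf2 libraries can show more rows, so the counts of rows are not compared as levels.

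**Figure D3:**
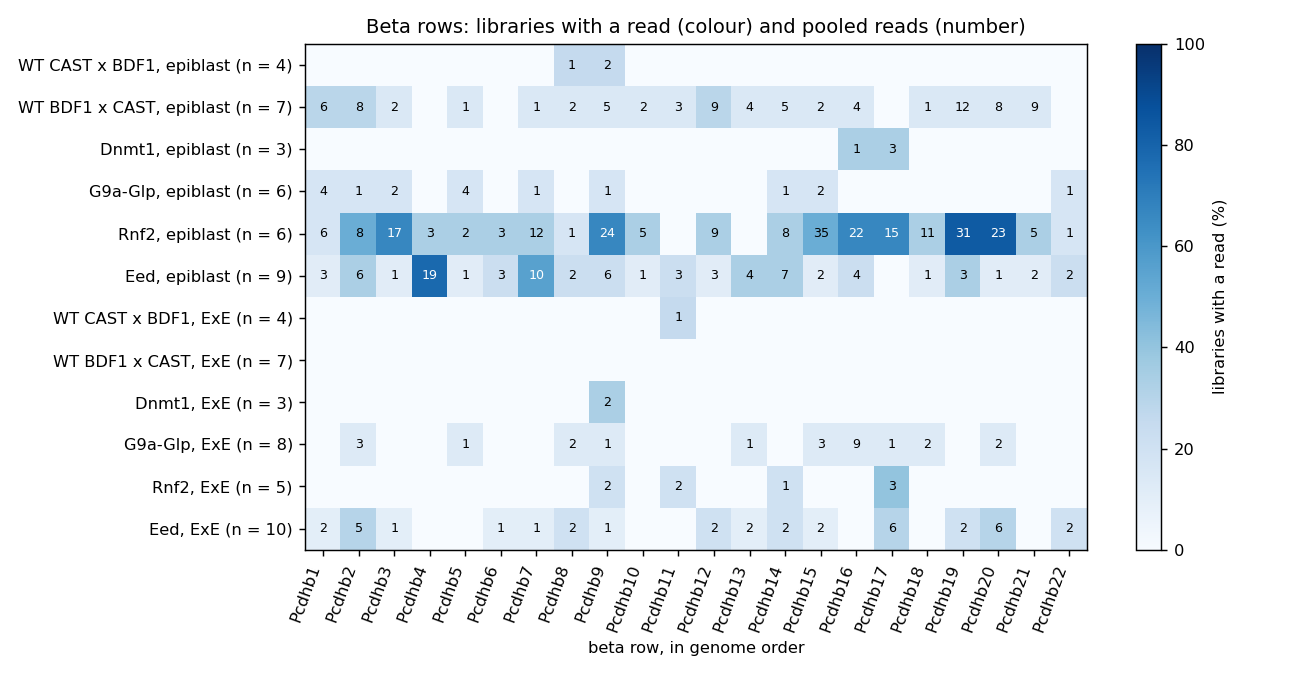
Beta rows in genome order (columns) for the 12 groups (rows), with the percentage of libraries that hold a read as colour and the pooled reads as numbers. Pcdhb4 is filled in Eed epiblast, with 19 reads, and empty in every wild-type group, and Bdf1xCast wild-type ExE holds no beta read.

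Of the alpha rows, Pcdhac2 held most Eed epiblast reads. This last alpha segment, which includes the constant exons, gave 17 of 25 alpha reads in 7 of 9 Eed epiblasts, 8 of them in embryo 6. In Rnf2 epiblast it gave 22 of 98, and 67 of the 98 lay in the Pcdha1 to Pcdha12 variable part, at 15 for Pcdha5, 14 for Pcdha4 and 9 for Pcdha9. Of these 98 alpha reads 47 came from embryo 5, the Rnf2 library with the most receptor reads. Outside embryo 8, Bdf1xCast wild-type epiblast held 4 alpha reads, all in 1 library.

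In embryos labelled Dnmt1 or G9a-Glp no member was called by edgeR when each comparison was fitted on its own groups. In Dnmt1 knockouts the gamma level was 1.41, 0.876 and 4.03 CPM in epiblast and 1.02, 3.51 and 2.58 CPM in ExE, and 2 of the 3 ExE libraries lay above the wild-type maximum of 1.79 CPM. In G9a-Glp knockouts gamma was 0.611 to 4.49 CPM in epiblast and 0 to 5.59 CPM in ExE, both overlapping the wild type. G9a-Glp ExE embryo 7, the library rich in receptor reads, held 23 of the 25 beta reads and 15 of the 37 gamma reads of its group. No member passed the filter in these 4 comparisons, so neither edgeR nor DESeq2 tested one. In a fit of all groups together, edgeR called Pcdhga6 and Pcdhga7 lower in G9a-Glp epiblast, 2 of 22 tested, at a log2 fold change of -1.57 (lowest adjusted p = 0.0460), against 15.5% of all genes. The fits called 6.94% of genes higher and 7.16% lower in Dnmt1 epiblast, 8.54% and 9.96% in Dnmt1 ExE, 19.6% and 15% in G9a-Glp epiblast, and 8.5% and 6.66% in G9a-Glp ExE. With no filter, Pcdhga1 had log2 fold changes of -1.40 ± 0.87 and 1.03 ± 0.83 in Dnmt1 epiblast and ExE and of -1.29 ± 0.63 and 0.74 ± 0.70 in G9a-Glp epiblast and ExE. The epiblast values rest on embryo 8 and were -0.34 ± 0.83 and -0.25 ± 0.63 without it.

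Between the wild-type tissues, ExE held fewer gamma reads than epiblast in the pool, 19 in 20276105 against 35 in 15545887 without embryo 8, or 0.416 times the level. The ranges overlapped, 0 to 1.79 against 0.419 to 3.63 CPM. Within embryos, gamma was lower in ExE than in epiblast in 6 of 7 Bdf1xCast pairs, all but embryo 4, and in 4 of 4 CastxBdf1 pairs. This count was made after the values were seen and carries no test. No member passed the filter, where 27.9% of 9340 genes were called higher in ExE and 28.7% lower. With no filter 30 of 54 members were called lower in ExE, against 21.7% of all genes. Without embryo 8 that count was 0 by edgeR, with 9 at an unadjusted p under 0.05, so it rests on 1 library. The crosses gave 0 members past the filter in either tissue, with 0.0103% of all genes called higher and 0% lower in epiblast and 0.608% and 0.45% in ExE. CastxBdf1 gamma came to 30 reads over 4 epiblasts (pooled 2.85 CPM), and levels were 1.09 to 5.196 CPM in epiblast and 0.537 to 0.894 CPM in ExE.

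**Figure D4:**
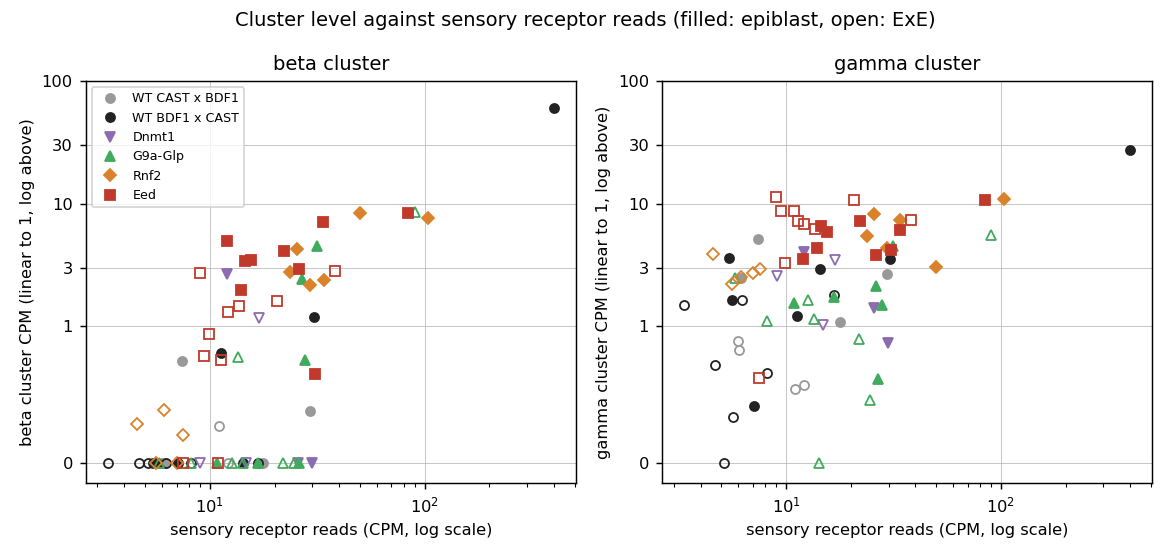
Distinct beta (left) and gamma (right) level of each of 72 libraries in CPM (vertical axes, linear to 1 and logarithmic above) against the CPM of 926 sensory receptor genes (logarithmic horizontal axes), with filled marks for epiblast and open marks for ExE. Wild-type embryo 8 lies alone at 399 CPM of receptor reads, and the Eed ExE libraries reach 11.3 CPM of gamma at under 40 CPM of receptor reads.

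Allele of origin could be read where reads sufficed. The deposited CAST share gave whole CAST reads within its rounding for every member value, with 15 values over 100 reads, all in 1 library, where rounding allows more than 1 whole number. Knockouts had a CAST father, so CAST reads are paternal there. For gamma, 19 libraries had at least 20 reads. The CAST share was 43.9 ± 17.5% (SD, n = 7) in Eed ExE, 58.3 ± 12.6% (n = 3) in Rnf2 ExE and 45.5 ± 11.6% (n = 6) in Rnf2 epiblast. Single Eed ExE embryos ran from 19.05% in embryo 5, with 4 CAST reads of 21 (Wilson 95% interval 7.67 to 40.0%) to 75.9% (57.9 to 87.8%, 29 reads, embryo 8). In 6 of the 19 libraries the interval left out 50%, with lower and higher shares among them.

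Single variable segments and beta rows were often read from 1 allele within a library. Of 26 such values with at least 8 reads, 15 came from 1 allele only, CAST in some libraries and BDF1 in others. The Pcdhga1 segment of Eed ExE embryo 8 had 17 of 17 CAST reads, and that of Rnf2 epiblast embryo 8 had 9 of 9 BDF1 reads. Within Rnf2 epiblast embryo 1, Pcdhb9 had 12 CAST and 0 BDF1 reads, Pcdhga10 9 CAST and 0 BDF1, and Pcdhga4 14 BDF1 and 0 CAST. In this library the Pcdhga4, Pcdhga8 and Pcdhga10 segments, all among the 15, come from rows of over 100 reads. Rounding of the share leaves their allele counts uncertain. In wild-type embryo 8 the neighbours Pcdhb19, Pcdhb20 and Pcdhb21 held 12, 8 and 9 reads, all BDF1. The last segments with the constant exons, Pcdhgc5 and Pcdhac2, held reads of both alleles in 20 of 20 values, among them 26 CAST and 42 BDF1 reads of Pcdhgc5 in Rnf2 epiblast embryo 1. Several reads can stem from 1 molecule after amplification from so few cells, and the number of molecules is unknown, so these shares are descriptions without a test.

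**Figure D5:**
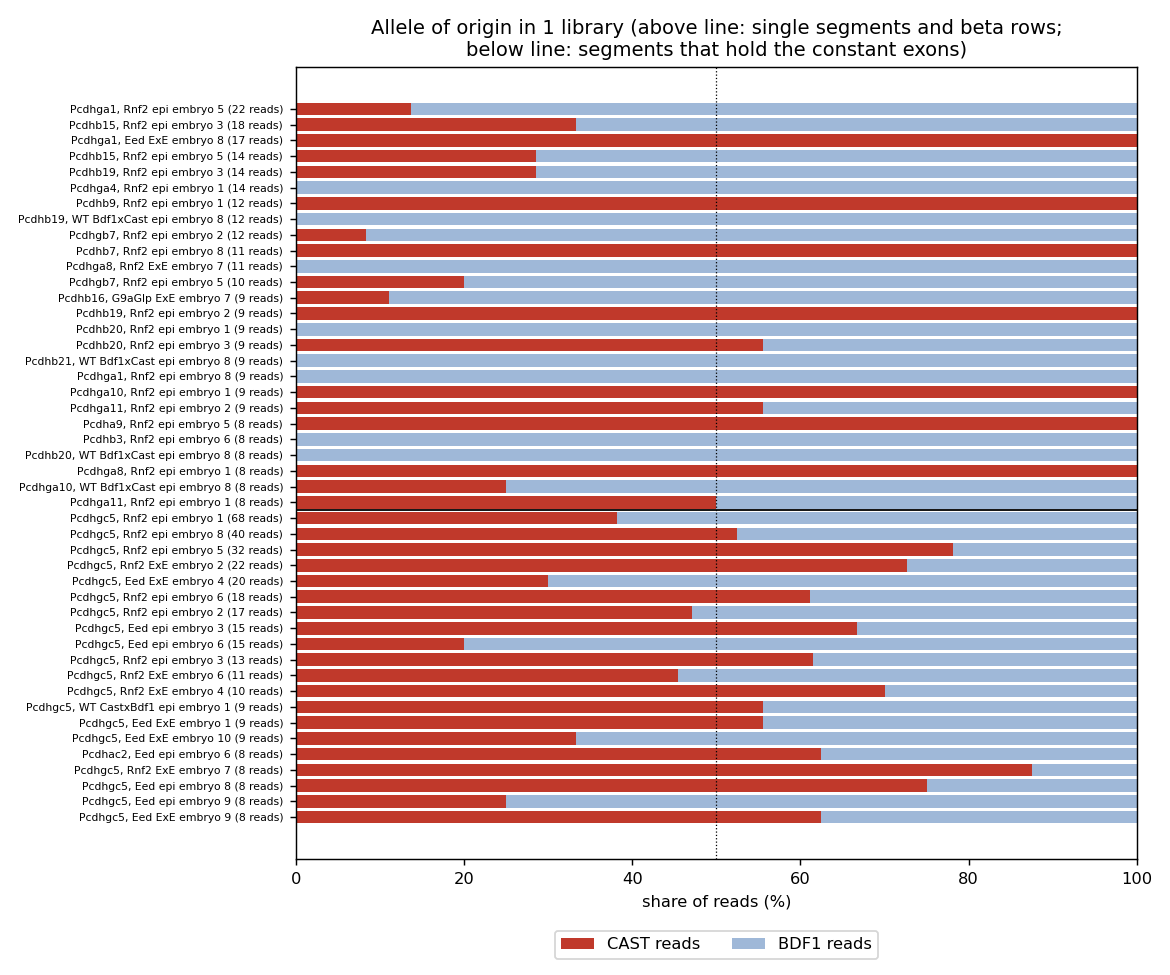
Share of CAST (red) and BDF1 (blue) reads for every segment or beta row with at least 8 reads in 1 library, named on the left with its group, embryo and reads, and a dotted line at 50%. Above the horizontal line, 15 of 26 bars are of 1 colour, and below it, where the segments hold the constant exons, 0 of 20 are.

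Related genes from chosen lists are given for comparison, with the background shares above. Of 12 non-clustered protocadherins and relatives in the table, 1 passed the filter in ExE of Eed, Pcdh1, and it rose from 1.61 ± 1.62 CPM (SD, n = 7) to 4.62 ± 1.47 (n = 10), a log2 fold change of 1.31 (adjusted p = 0.0307, edgeR), with overlap. The filter asked for 3.43 CPM there, above the wild-type mean, so Pcdh1 passed mainly through the Eed libraries. That it was called is no support. In Eed epiblast 2 were tested: Pcdh1 rose by 1.31 and Pcdh18 fell by 1.07 on the log2 scale. In Rnf2 epiblast Pcdh1 also rose, to 11.5 ± 9.19 CPM from 3.96 ± 1.76 (log2 fold change 1.499), and Pcdh18 fell by 1.38. Among 3 classical cadherins tested in Eed ExE, Cdh3 (P-cadherin, of epithelia and placenta) rose by 1.13 and the other 2 were not called.

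Partners bound by protocadherin tails, the kinases and the WAVE actin regulatory complex, went both ways in Eed ExE. Of 12 tested, 4 rose and 3 fell, where 22.7% of all genes were called higher and 18.1% lower. Their median log2 fold change was -0.10 against 0.02 over all genes tested. The kinase Fyn rose from 3.62 ± 1.66 to 12.8 ± 3.67 CPM, log2 fold change 1.61 (adjusted p = 0.000118, edgeR). Cyfip2 of the WAVE complex rose by 1.53 and the kinase Ptk2b by 1.35. In Rnf2 ExE 0 of 12 rose and 1 fell, against 12.2% and 9.99% of all genes.

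Of 24 regulators known to act on the clusters, 22 were tested in Eed ExE, and 3 rose and 7 fell, with a median of -0.22. Of all genes there, 22.7% were called higher and 18.1% lower. The DNA methyltransferase Dnmt3b fell from 752 ± 179 (n = 7) to 269 ± 94.0 CPM (n = 10), without overlap, a log2 fold change of -1.65 (adjusted p = 2.71e-06, edgeR). The dioxygenase gene Tet3 rose by 1.04 and the cofactor Dnmt3l fell by 0.92. In Rnf2 ExE 0 rose and 7 fell of 22, against 12.2% and 9.99% of all genes, and Dnmt3b again fell without overlap, by 1.21. In epiblast 4 rose and 8 fell of 21 in Eed, against 19.2% and 16.5% of all genes. There 2 rose and 9 fell of 21 in Rnf2, against 18% and 13%.

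Genes around the clusters were called in both directions. Of 46 neighbouring rows within 500 kb, 24 were tested in Eed ExE, with 4 higher, 3 lower and a median log2 fold change of 0.08. Of all genes, 22.7% were called higher and 18.1% lower. The rows with the most reads were Pfdn1, a chaperone subunit gene (log2 fold change -0.58, adjusted p = 0.0327, edgeR), Sra1 (-0.64, adjusted p = 0.0296, edgeR), and the spanning Gm37013 and Gm38666. Gm37013 stood at -0.24 (adjusted p = 0.154, edgeR) and mostly reports Taf7, at -0.27 (adjusted p = 0.106, edgeR). In Eed epiblast Taf7 fell from 649 ± 39.2 (n = 7) to 396 ± 54.2 CPM (n = 9), without overlap, by 0.87 on the log2 scale (adjusted p = 1.85e-05, edgeR), and Gm37013 by 0.86.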

How the data were processed

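Full-length cDNA of epiblast and ExE (SMART-Seq v4, Nextera XT) was sequenced as paired-end reads, per the labels' protocols. STAR 2.5.0, HTSeq and mm10 are named in the submitters' processing notes, without further settings. The authors deposited unnormalized counts of reads over BDF1 and CAST polymorphisms per RefSeq locus, per the file headers and notes. An empty value was read as 0. The deposited allelic ratio is a score, the CAST share minus 0.5, from which CAST reads were recovered as whole numbers. The 72 further columns, an allelic score per library, were left unmapped and not used here. The bisulfite sample was not analysed here.

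Reads were scaled to the library total (CPM). Each comparison was fitted on its 2 groups with edgeR 4.0.16 (R 4.3.3), with TMM scaling, filterByExpr and a two-sided quasi-likelihood test, adjusted over all genes tested, at a threshold of 0.05; standard errors are the log2 fold change over the root of F. DESeq2 1.42.0 with its default settings was an alternative. The edgeR script was tested on simulated data. Named were, per cluster, the 4 rows of highest mean CPM, members past the threshold without overlap between groups, targeted genes, up to 3 genes per list and the neighbours of highest CPM. The members and lists were chosen with earlier results of these data known. Cluster sums carry no test. Both tissues of a wild-type embryo are a true pair by the embryo label, and their deviations from the group means correlated at 0.02 to 0.49 over 7285 genes. In other comparisons numbers are only shared. Alternatives were other filters, scalings, tools, covariates, thinning, and libraries left out. No sequences of members are printed.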

Additional observations from a re-analysis of the deposited data

Results flagged for a closer look

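Of 27 cluster levels in groups of 4 to 10 libraries with any spread, 9 held a library far from the others by a Dixon test at the 5% level. That level means about 1 in 20 groups by chance only for normally distributed values. Many of these levels are 0, so the 9 cannot be set against that rate. Bdf1xCast wild-type epiblast embryo 8 stood apart in all 3 clusters, at 4.57 CPM of alpha, 60.2 CPM of beta and 27.4 CPM of gamma. G9a-Glp ExE embryo 7 stood apart at 8.58 CPM of beta and 5.59 CPM of gamma, and Rnf2 epiblast embryo 5 at 5.92 CPM of alpha. These 3 libraries are among the 4 with over 80 CPM of sensory receptor reads. CastxBdf1 epiblast embryo 2 stood apart at 2.29 CPM of alpha, its ExE at 0.269 CPM of beta (1 read), and Rnf2 ExE embryo 2 at 0.102 CPM of alpha (1 read). In both of these ExE groups every other library was at 0, so a single read is flagged by construction.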

How the results depend on the processing

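Counts of members called (of 58) depended on the filter and on single libraries, and alternatives that left out libraries by their reads, or split rows into segments, were chosen after seeing the data. In Eed ExE the 5 calls became 25 without a filter, 22 with a filter on a mean of 1 CPM and 17 with all groups in 1 fit, where 16.5%, 24.9% and 25.3% of all genes were called higher. They became 1 when thinned to the smallest library (21.9% of all genes), 1 above the lowest overlapping row (22.7%), and 0 with segments (22.7%) or the replicate block (17.9%), where no member passed the filter. Pcdhga1 kept its direction and its call there in all 8 alternatives that tested it, with log2 fold changes of 2.47 to 3.07. In Eed epiblast the 0 calls became 8 with DESeq2, 1 without a filter, 15 without wild-type embryo 8, 11 without it and without a filter, and 11 without the libraries rich in receptor reads, against 20.6%, 8.22%, 22.4%, 11% and 22.4% of all genes. In Rnf2 epiblast they became 17, 21 and 2 under the last 3, against 20.9%, 10.8% and 20.1%. In Rnf2 ExE they became 2 with the mean filter and 4 with all groups in 1 fit (11.8% and 12.3% of all genes), and in G9a-Glp epiblast 2 lower with all groups in 1 fit (15.5%). Between wild-type tissues they became 30, 15 and 22 lower without a filter, with the mean filter and with all groups in 1 fit (21.7%, 29% and 31.7%). The causes were not tested beyond this. Of 151 alternatives for these counts 130 left them within 1.5 times, most because no member passed the filter, and leaving out single Dnmt1, Rnf2 ExE or CastxBdf1 replicates gave 0 throughout. The replicate block changed no other member count. Library totals in place of TMM moved the median of all genes by 0.21 and 0.25 (log2) in Dnmt1 epiblast and ExE, 0.16 in Eed epiblast and 0.17 in Eed ExE, and the share of calls that were higher from 49.2 to 71.3%, 46.2 to 72.5%, 53.8 to 72.1% and 55.6 to 74.1%. Summed rows moved in 20 of 84 alternatives, as overlapping rows repeat reads. CAST shares from at least 50 reads stayed within the spread in the 3 groups that had any.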
